A study of Mus musculus with 2 samples.

Results

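Immediate early genes and heat shock genes are the 2 best known sets of rapid response genes in mammalian cells, and 10 of them were followed here, gene by gene, in single nuclei of mouse hearts. The immediate early set held Fos, Jun, Junb, Egr1, Atf3 and Dusp1, and the heat shock set held Hspa1a, Hspa1b, Dnajb1 and Hsp90aa1. They were taken by symbol from the gene lists of both libraries, where all 10 were found once among 32245 gene symbols.

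The study compared 1 library of a fibroblast inflammasome model, called CF-KI, with 1 control library of heart nuclei, both from male C57Bl6/J mice aged 3.5 months. CF-KI mice were Tcf21-MerCreMer;Nlrp3-A350V/A350V, with both copies of Nlrp3, the sensor of the NLRP3 inflammasome, in the mutant form. Control mice were Tcf21-MerCreMer;Nlrp3-WT/WT, and tamoxifen was injected in both groups. The MerCreMer recombinase is active only with tamoxifen and is driven from Tcf21, a gene of cardiac fibroblasts and epicardium. The submitters state that the mutant allele is silent wherever the Cre has not acted. Each group was 1 library, so no difference below has a replicate check and no p-value was computed. The number of animals behind a library is not given in the sources used here. Nlrp3 itself gave 6 UMIs in fibroblast-like nuclei of CF-KI and 0 in those of the control, where a count of 0 allows up to 3, and these counts cannot show the point mutation. Tcf21 gave 446 and 524 UMIs in fibroblast-like nuclei of CF-KI and the control.

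Immediate early genes are switched on within minutes of a growth factor, stretch or stress signal, without new protein synthesis. Fos, Jun and Junb encode subunits of the transcription factor AP-1, Egr1 encodes a zinc finger transcription factor, and Atf3 encodes a stress-induced member of the ATF family. Dusp1 encodes a phosphatase that removes the activating phosphates from MAP kinases and so damps the signal that induces the set. The heat shock genes are driven by the transcription factor HSF1. Hspa1a and Hspa1b encode the nearly identical inducible HSP70 chaperones, Dnajb1 encodes an HSP40 co-chaperone that loads clients onto HSP70, and Hsp90aa1 encodes the inducible HSP90. Both sets are also known to respond to the handling of tissue.

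In the files a unique molecular identifier (UMI) stands for 1 captured RNA molecule. The CF-KI library held 15077 barcodes with 21603653 UMIs and the control 11257 barcodes with 18040776 UMIs, and 46 barcode sequences occurred in both. After removal of barcodes with under 200 genes and of likely doublets, 13175 and 10193 barcodes were kept, with medians of 1085 and 1116 UMIs. The medians of non-mitochondrial UMIs were 811 in CF-KI and 1030 in the control. The libraries stood apart in their mitochondrial RNA: the median barcode held 13.8% mitochondrial UMIs in CF-KI against 3.42% in the control. Mitochondrial UMIs were therefore left out of the denominator, and levels are given as CPM, which sets each gene against a common total of the remaining UMIs. Every interval is a 95% interval for counting error only, which does not hold the spread between animals or preparations. By that interval alone, 22.5% of 15967 genes were higher and 28.3% lower in CF-KI over the whole library, so an interval that leaves out 0 on the log2 scale is common in these libraries. Of the 10 genes, Fos, Egr1, Atf3, Dusp1 and Hsp90aa1 had such an interval above 0 and Hspa1b had one below it.

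Nuclei were clustered with the 10 genes left out and named from marker genes. The 4 classes described most fully were fibroblast-like (3807 nuclei in CF-KI against 3478 in the control), cardiomyocyte-like (2423 and 2131), endothelial-like (1595 and 816) and macrophage-like (584 and 836). All 8 markers of each of these lists were detected in both libraries. They lay over 2-fold above the whole library for the fibroblast, endothelial and macrophage lists, and for the cardiomyocyte list 2 of 8 did so in CF-KI and 5 of 8 in the control. Another 7 classes were compared: endocardial-like, B cell-like, mesothelial-like, adipocyte-like, pericyte-like, atrial cardiomyocyte-like and lymphatic endothelial-like nuclei. In the adipocyte-like class 1 of 6 markers was at 0 in CF-KI. The leading genes of the B cell-like cluster included Ccl5 and Gzma, which are genes of cytotoxic lymphocytes, and a fibroblast-like cluster of 70 nuclei was led by the interferon-response genes Ifit1 and Cxcl10. A cluster of 1816 CF-KI and 235 control barcodes with over 50% median mitochondrial UMIs was kept apart. Of the marker lists, the cardiomyocyte list matched it best, with 7 of 8 markers raised.

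Signs of RNA from other cells differed between the libraries. Free RNA was estimated as the median level of other classes' markers in a class, as a percent of their level in the whole library. This takes free RNA to have the mix of the whole library, and no profile of the suspension itself was used. The estimate was 39.0% in CF-KI against 15.6% in the control for fibroblast-like nuclei and 46.2% and 30.8% for endothelial-like nuclei. It was 69.0% and 22.3% for macrophage-like, and 16.5% and 10.2% for cardiomyocyte-like nuclei. The part of free RNA in the differences below was tested only as far as subtracting that estimate goes, and the subtracted value is given where it moves a result.

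Promoter sequences were compared between the 2 sets. RefSeq windows from the GRCm38.p6 build, 250 bases before and 50 after the start of each gene, were found for 8 of the 10 genes, and none was matched for Egr1 and Hsp90aa1. Motifs were searched on both strands in the 250 upstream bases. They were TGACGT, the core of the cAMP response element, TGACNTCA, a form bound by Jun and ATF proteins that overlaps TGACGT where N is G, and CCAAT. GAANNTTC and TTCNNGAA, from the repeat of the heat shock element, TATAAA and the CArG box of serum response factor were searched in the same way. The sequences below are given 5′ to 3′ on the gene's strand, up to the start, with matches in capitals. They are shown because each carries a match described after it.
Fos, chr12:85473790-85473889, plus strand: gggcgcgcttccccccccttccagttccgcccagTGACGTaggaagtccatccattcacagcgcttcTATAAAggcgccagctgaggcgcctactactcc
Jun, chr4:95052223-95052322, minus strand: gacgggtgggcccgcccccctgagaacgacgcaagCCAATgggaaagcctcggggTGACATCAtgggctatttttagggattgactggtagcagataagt
Atf3, chr1:191183334-191183433, minus strand: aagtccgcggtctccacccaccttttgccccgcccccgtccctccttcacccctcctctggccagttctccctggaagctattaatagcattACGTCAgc
Dusp1, chr17:26508473-26508682, minus strand: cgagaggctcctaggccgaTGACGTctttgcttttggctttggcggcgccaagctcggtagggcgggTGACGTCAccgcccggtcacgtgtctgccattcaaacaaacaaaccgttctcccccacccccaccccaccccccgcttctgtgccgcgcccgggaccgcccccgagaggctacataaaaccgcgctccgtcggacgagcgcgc
Hspa1a, chr17:34972157-34972296, minus strand: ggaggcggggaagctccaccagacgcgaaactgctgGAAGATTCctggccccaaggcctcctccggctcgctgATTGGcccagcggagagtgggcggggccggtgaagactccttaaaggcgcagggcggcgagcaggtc
Hspa1b, chr17:34959239-34959378, minus strand: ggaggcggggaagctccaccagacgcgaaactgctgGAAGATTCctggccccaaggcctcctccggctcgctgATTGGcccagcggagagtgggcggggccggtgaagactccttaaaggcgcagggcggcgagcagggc

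TGACGT, or its reverse complement ACGTCA, lay upstream of Fos, Atf3 and Dusp1, and 6.47% of 32851 promoter windows hold it. In Fos it began at position -66, counted back from the start, ahead of a TATAAA at -33, a motif held by 12.4% of windows. Dusp1 held it at -191, -143 and -141, where the last 2 overlap in 1 TGACNTCA match. TGACNTCA was found in Jun and Dusp1 and in 7.49% of windows. CCAAT, or ATTGG on the other strand, was found in Jun, Junb, Hspa1a, Hspa1b and Dnajb1, and 33.8% of windows hold it. GAANNTTC was found in Hspa1a and Hspa1b and, at -128 and outside the bases printed, in Jun, against 6.69% of windows. TTCNNGAA and the CArG box were found in 0 of the 8 genes, and 7.17% and 1.47% of windows hold them. These are matches of letters in a fixed window and show no binding.

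Hspa1a and Hspa1b are neighbours on chromosome 17, and their 250 upstream bases differed at 3 positions. Their reads could still be told apart where this 3′ assay reads them. Of the 91-base windows in the last 500 bases of the Hspa1a transcript, 0% occurred in Hspa1b, while over the whole transcript 49.1% did. All 10 genes were placed on GRCm38 with GENCODE vM21. Fos spans chr12:85473890-85477273, Jun chr4:95049034-95052222 and Dusp1 chr17:26505590-26562128. Hspa1a spans chr17:34969190-34972156, Hspa1b chr17:34956436-34959238 and Hsp90aa1 chr12:110690605-110702728. Junb, at chr8:84974484-84978718, overlaps the end of Prdx2 on the other strand, and Jun overlaps the antisense gene Junos. Dusp1 overlaps Ergic1 on the other strand and Gm50275 on its own strand. Prdx2 had 2584 and 1538 UMIs over all barcodes of CF-KI and the control, Junos 24 and 28, Ergic1 279 and 319, and Gm50275 0 in both. The strand setting of the counting is not given in the sources used here, so reads of Junb and Prdx2, or of Dusp1 and Ergic1, in the overlap may not be separable. The promoter windows of Dusp1 and Atf3 lie inside their GENCODE spans, so the RefSeq starts used differ from the outermost GENCODE starts.

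**Figure D1:**
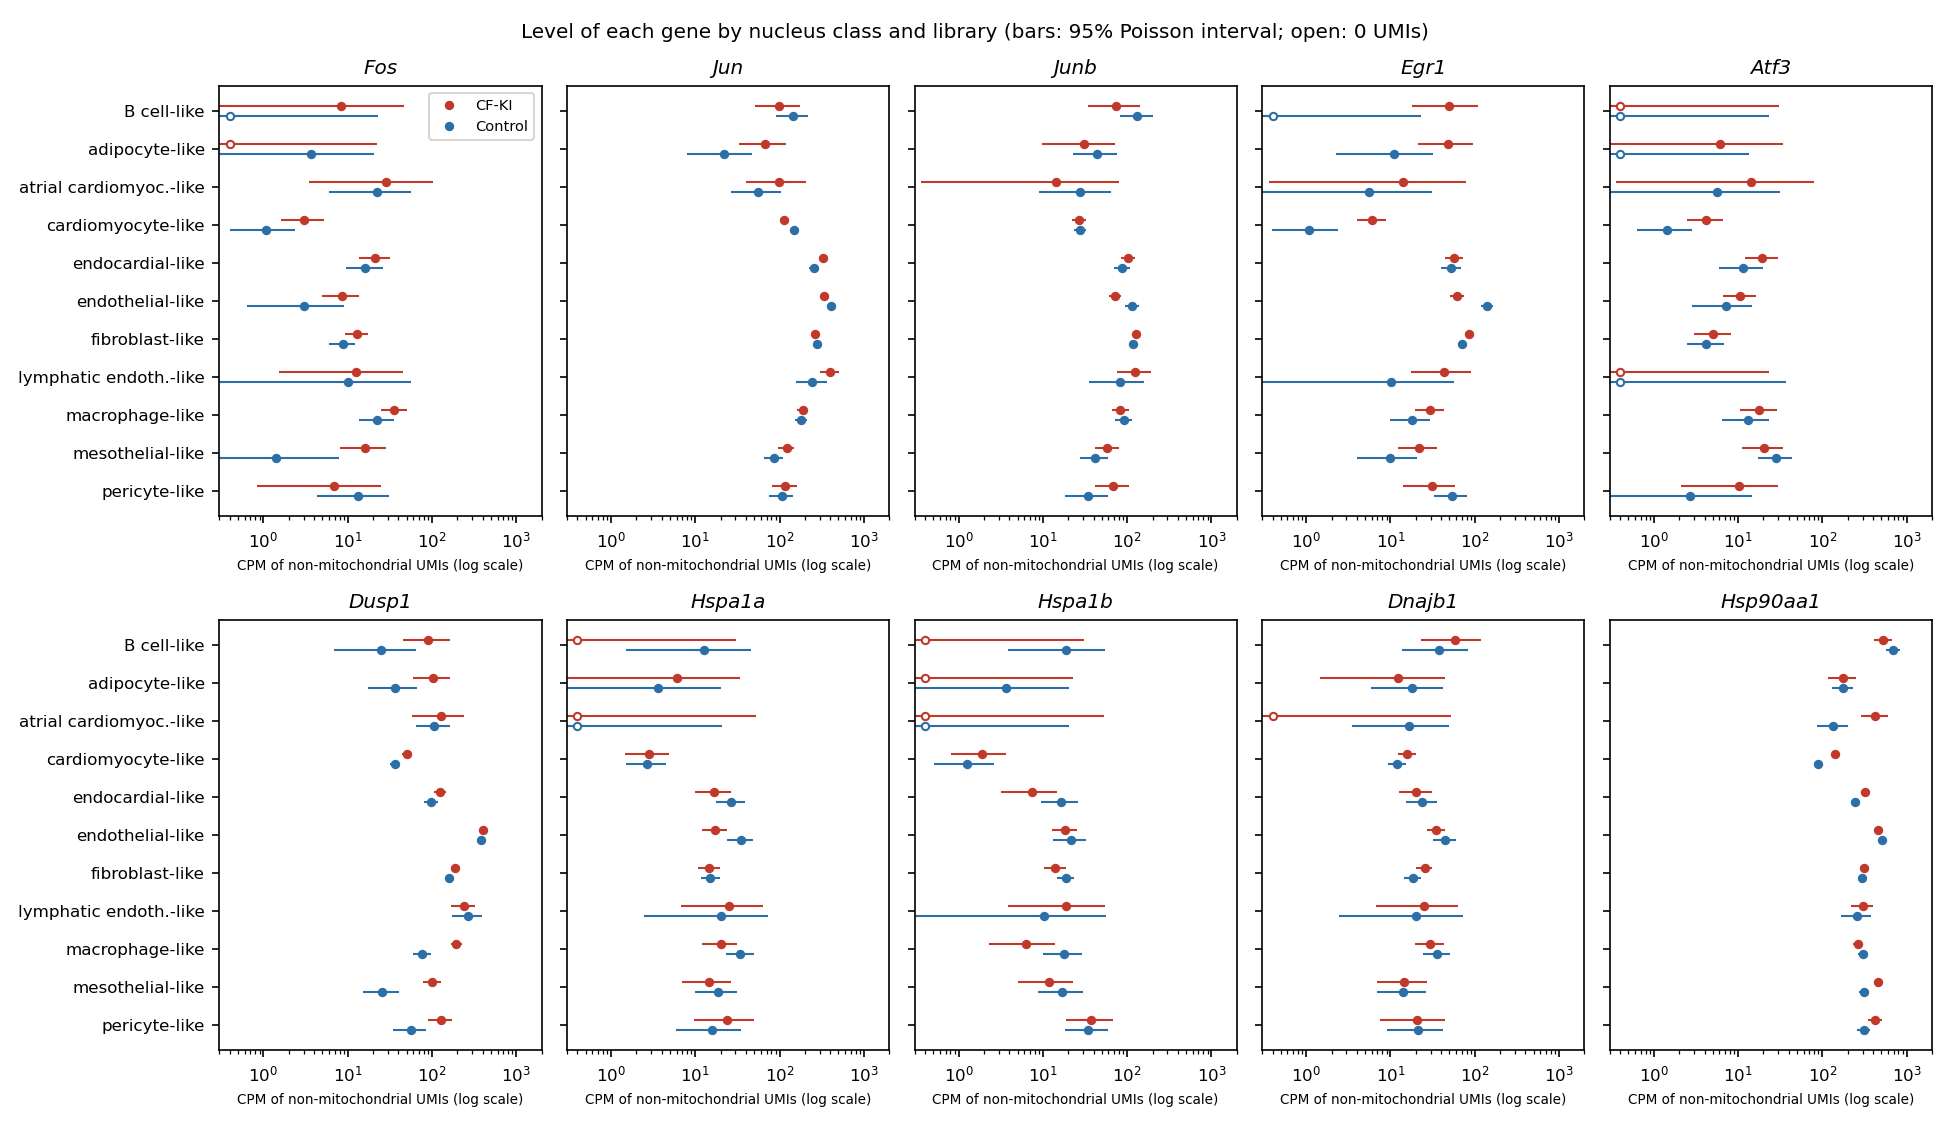
Level of each of the 10 genes in 11 nucleus classes of the CF-KI and control libraries, as CPM of non-mitochondrial UMIs on a log axis; points are the summed counts of 1 library, bars are 95% Poisson intervals and open points mark 0 UMIs. Jun and Dusp1 were highest in endothelial classes and Hsp90aa1 in B cell-like nuclei, and Fos and Atf3 rested on few UMIs in every class.

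Across nucleus classes, Jun was highest in the endothelial lineage. In the control it stood at 407 CPM in endothelial-like, 277 CPM in fibroblast-like, 256 CPM in endocardial-like, 181 CPM in macrophage-like and 149.6 CPM in cardiomyocyte-like nuclei, and at 21.8 CPM in adipocyte-like nuclei. In CF-KI lymphatic endothelial-like nuclei led with 394 CPM, followed by endothelial-like with 335 CPM and endocardial-like with 327 CPM, whose intervals overlap. Of the 10 neighbouring pairs in the order of classes, the intervals were apart for 3 in CF-KI and for 1 in the control, the step from endothelial-like down to fibroblast-like.

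Dusp1 was highest in endothelial-like nuclei of both libraries. They held 403 CPM in CF-KI against 386 CPM in the control, and lymphatic endothelial-like nuclei came second with 237 and 265 CPM. Fibroblast-like nuclei held 187 and 161 CPM. The lowest class was cardiomyocyte-like in CF-KI with 50.6 CPM and B cell-like in the control with 25.2 CPM. A Dusp1 UMI was found in 32.5% and 28.6% of endothelial-like nuclei and in 8.42% and 8.21% of cardiomyocyte-like nuclei. Nuclei with at least 500 non-mitochondrial UMIs were then thinned to 500 UMIs. This left out 160 CF-KI and 48 control endothelial-like nuclei, and 49 and 10 cardiomyocyte-like nuclei. After thinning the shares were 16.6% and 16.5% in endothelial-like, and 2.53% and 1.6% in cardiomyocyte-like nuclei. No class is known to lack these genes, so no background share from such a class can be set beside these values.

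Egr1 changed places between the libraries. Endothelial-like nuclei were first in the control with 141 CPM, apart from fibroblast-like nuclei with 71.2 CPM. In CF-KI fibroblast-like nuclei were first with 86.4 CPM, apart from endothelial-like nuclei with 61.7 CPM. Junb was highest in fibroblast-like nuclei of CF-KI with 127 CPM and in B cell-like nuclei of the control with 132 CPM, and no neighbouring classes were apart by their intervals in either library.

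Fos and Atf3 were detected in few nuclei. Fos gave 161 UMIs in the whole CF-KI library and 95 in the control, and was highest in macrophage-like nuclei in both, at 35.8 and 22.5 CPM. Atf3 gave 119 and 79 UMIs and was highest in mesothelial-like nuclei in both, at 20.4 and 28.5 CPM. Of the 20 Atf3 UMIs in control mesothelial-like nuclei, 13 lay in 1 nucleus. No neighbouring classes were apart for either gene.

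Among the heat shock genes, Hsp90aa1 was highest in B cell-like nuclei, with 529 CPM in CF-KI against 692 CPM in the control, followed by endothelial-like nuclei with 458 and 511 CPM. Among the compared classes Hsp90aa1 was lowest in cardiomyocyte-like nuclei, at 141 and 90.0 CPM. The cluster kept apart for its mitochondrial share, which also carries cardiomyocyte markers, held 364 and 310 CPM. Hspa1a was lowest among the larger classes in cardiomyocyte-like nuclei, at 2.81 and 2.71 CPM, and reached 34.8 CPM in endothelial-like nuclei of the control. Hspa1b was highest in pericyte-like nuclei in both libraries, at 37.7 and 34.5 CPM. Dnajb1 was highest in B cell-like nuclei of CF-KI, at 57.8 CPM, and in endothelial-like nuclei of the control, at 44.0 CPM. For Hspa1a, Hspa1b and Dnajb1 no neighbouring classes were apart in either library.

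The question of the comparison between libraries is whether the response genes differ in the fibroblasts that carry the active Nlrp3 allele and in the cells around them. Over the whole library the 6 immediate early genes summed to 487 CPM in CF-KI against 421 CPM in the control, a log2 ratio of 0.21 (interval 0.16 to 0.26). The 4 heat shock genes summed to 330.2 and 289.8 CPM, a log2 ratio of 0.19 (0.13 to 0.25). At 2-fold or more, 0 of the 10 genes were higher and 0 were lower, where 3.32% of all genes with at least 20 UMIs were higher and 4.99% lower. Fos was at 11.1 and 6.43 CPM, Atf3 at 8.19 and 5.35 CPM and Dusp1 at 155 and 102 CPM, all higher in CF-KI, while Jun was at 202 and 201 CPM. Both sums turned to the other side when barcodes were limited to 5% mitochondrial UMIs, at -0.43 and -0.24, and in barcodes of 5 to 20% they were -0.06 and -0.09. At up to 5% the ratio was also below 0 for Atf3 (-0.14), Dusp1 (-0.12), Egr1 (-1.28) and Hsp90aa1 (-0.20). Whole-library values also depend on the mix of classes. At 1 to 5% mitochondrial UMIs 1543 of 1985 CF-KI barcodes were cardiomyocyte-like, against 311 of 3598 in the control. At up to 1% they were 106 of 125 and 1763 of 2615. The part of this mix in the values above was not tested, and the classes are described one by one.

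**Figure D2:**
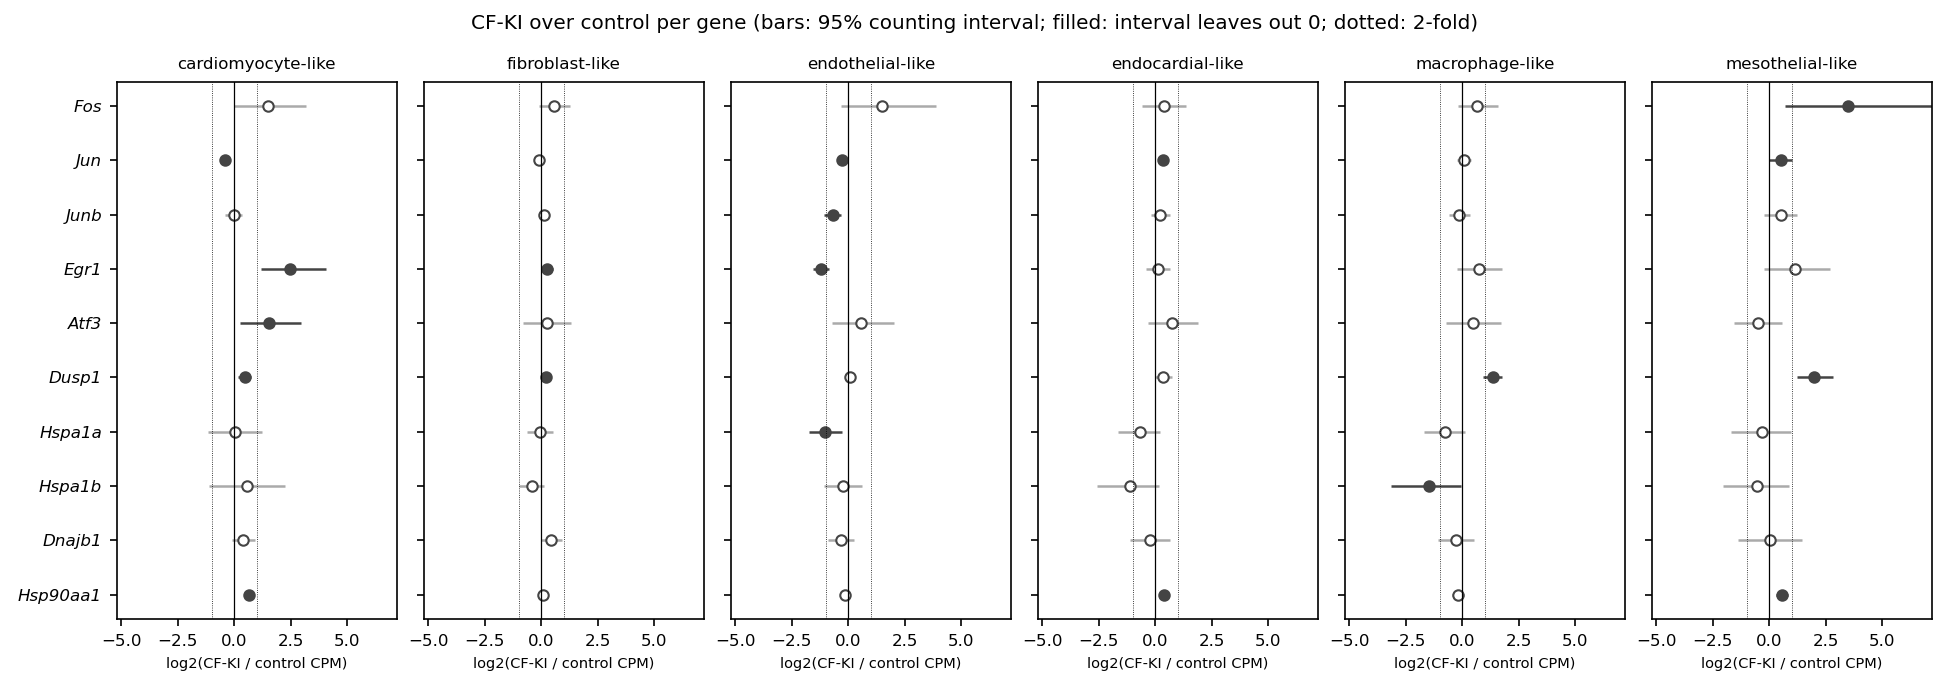
Log2 ratio of CF-KI to control CPM for each gene in 6 nucleus classes; points are ratios of 2 libraries, bars are 95% counting intervals, filled points have an interval that leaves out 0 and dotted lines mark 2-fold. Egr1 lies to the right in cardiomyocyte-like nuclei (2.49) and to the left in endothelial-like nuclei (-1.19), and all 10 fibroblast-like values lie inside 2-fold. The cardiomyocyte-like Egr1 value rests on few UMIs, and its level was above 0 in neither library after free RNA subtraction.

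In fibroblast-like nuclei, the cells in which the allele is meant to act, the 10 genes differed little between the libraries. None was 2-fold higher or lower, where 5.56% of 12606 genes were higher and 2.71% lower. The immediate early sum was 681 CPM in CF-KI against 639 CPM in the control, a log2 ratio of 0.09 (0.01 to 0.17), and the heat shock sum was 369 and 352 CPM, a log2 ratio of 0.07 (-0.04 to 0.18).

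Among the immediate early genes of fibroblast-like nuclei, Egr1 was at 86.4 CPM in CF-KI against 71.2 CPM in the control, a log2 ratio of 0.28 (0.04 to 0.52), and Dusp1 was at 187 and 161 CPM, a log2 ratio of 0.22 (0.06 to 0.38). These were the 2 of 10 genes whose interval lay above 0, where 16% of all genes did, and 0 of 10 lay below it, where 17.2% did. Jun was at 263 and 277 CPM and Junb at 127 and 117 CPM, and their intervals overlap between the libraries. Fos rested on 43 and 35 UMIs and Atf3 on 17 in each library, and both intervals of the ratio include 0. The 8 endothelial markers summed to 1367 CPM in these nuclei of CF-KI against 567 CPM in the control, and their part in the Egr1 and Dusp1 values was not tested beyond the free RNA subtraction, which gave 0.28 for Dusp1. Dusp1 gave a log2 ratio of -0.90 (-2.79 to 0.49) at up to 5% mitochondrial UMIs, on 4 UMIs in CF-KI against 182 in the control, and of 0.04 (-0.14 to 0.23) in the barcodes of 5 to 20% mitochondrial UMIs, which held 2734 CF-KI and 2006 control nuclei of this class, while Egr1 was at 0.39 (0.10 to 0.68) there. The Egr1 interval included 0 with at least 500 genes per barcode (-0.02 to 0.53) and after thinning (-0.02 to 0.70). The Egr1 ratio was 0.57 after subtraction of estimated free RNA and 1.57 (0.62 to 2.41) at up to 5% mitochondrial UMIs. The value of 1.57 rests on 13 Egr1 UMIs in 52 CF-KI nuclei, against 92 UMIs in the control at 1 to 5% and 15 at up to 1%. In barcodes of 5 to 20% the immediate early sum was 701 CPM in CF-KI against 705 CPM in the control, and the heat shock sum 379 against 381 CPM.

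Among the heat shock genes of fibroblast-like nuclei, Hsp90aa1 was at 315 and 299 CPM, Hspa1a at 14.7 and 15.1 CPM, Hspa1b at 14.1 and 18.9 CPM, and Dnajb1 at 25.5 and 18.6 CPM. All 4 intervals of the ratio include 0. The class was made up of different clusters in the 2 libraries: 2839 of the CF-KI nuclei lay in cluster 0, which was led by Meg3 and Col8a1, and 2644 of the control nuclei in cluster 1, which was led by Cilp and Col8a1. Within cluster 0 the immediate early sum was 555 CPM in CF-KI against 589 CPM in the control, and within cluster 1 it was 718 and 579.9 CPM.

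Among fibroblast-like nuclei, cluster 11 stood above clusters 0 and 1 in both libraries. The cluster of 70 nuclei was too small to be set beside them. Cluster 11, led by Pi16, Cd248 and Gfpt2, held 295 CF-KI and 306 control nuclei, and its immediate early sum was 1260.1 CPM in CF-KI against 1061 CPM in the control. Its intervals, 1151 to 1377 CPM and 969 to 1160.0 CPM, lie above those of clusters 0 and 1 in both libraries. Jun alone was at 565 and 568 CPM in cluster 11, against 199 and 239 CPM in cluster 0. The heat shock sum of cluster 11 was 598 and 498 CPM, against 310.4 and 317 CPM in cluster 0. Nuclei of cluster 11 were also deeper, with medians of 1330 and 1426 UMIs against 841 and 867 in cluster 0. At a like depth, the CF-KI nuclei of cluster 1, with a median of 1329 UMIs, held 718 CPM. Pi16 and Cd248 are known as markers of adventitial, progenitor-like fibroblasts.

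In single fibroblast-like nuclei Junb and Fos were found more often with Egr1 than without it, while the intervals for Jun and Dusp1 overlap. After thinning to 500 UMIs, Junb was found in 18.5% of the 124 CF-KI nuclei with Egr1 (12.1% to 26.5%) and in 4.94% of the 3402 without it. In the control it was found in 12.9% of 85 nuclei with Egr1 (6.64% to 22.0%) and in 4.45% of 3326 without it. Fos was found in 3.23% of the CF-KI nuclei with Egr1 (0.89% to 8.05%) and in 0.50% of those without (0.29% to 0.80%). In the control the Fos shares were 3.53% (0.73% to 9.97%) and 0.33% (0.17% to 0.59%). The shares with Egr1 rest on only 4 CF-KI and 3 control nuclei with both genes. For Jun the shares were 12.1% and 10.4% in CF-KI and 12.9% and 10.5% in the control, and the intervals with and without Egr1 overlap in both libraries. Dusp1 was in 10.5% and 7.88% of CF-KI nuclei and in 4.71% and 6.67% of control nuclei, lower with Egr1 in the control. For the chaperone pair the intervals overlap: Hsp90aa1 was in 11.4% of CF-KI nuclei with Dnajb1 and 13% without, and in 16.1% and 11.4% of control nuclei. Thinning left out 281 CF-KI and 67 control nuclei of this class. Nuclei of a library are not replicates, and these shares describe 2 libraries.

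**Figure D3:**
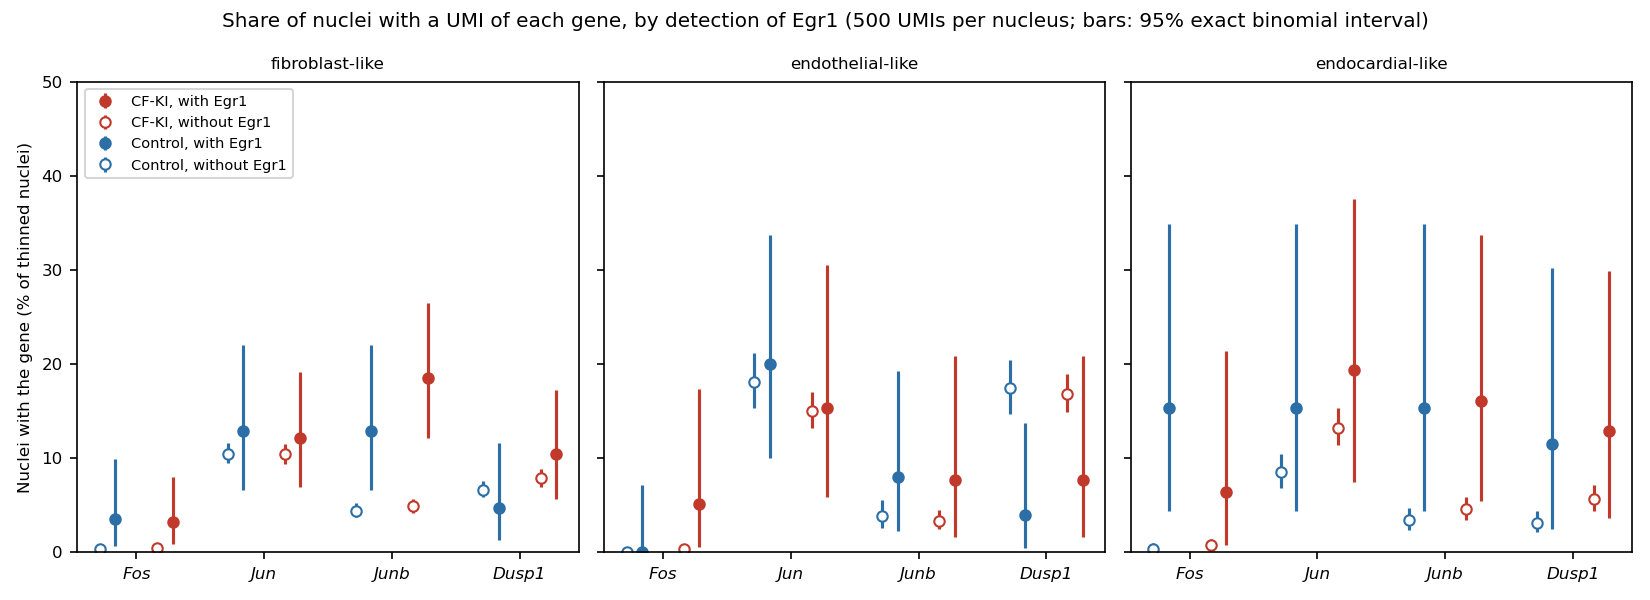
Share of nuclei, thinned to 500 UMIs each, with a UMI of Fos, Jun, Junb or Dusp1, split by detection of Egr1, in 3 nucleus classes; bars are 95% exact binomial intervals. Nuclei with under 500 non-mitochondrial UMIs are left out. In fibroblast-like nuclei of both libraries the Junb share lay higher with Egr1 (18.5% and 12.9%) than without it (4.94% and 4.45%).

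In cardiomyocyte-like nuclei the immediate early genes lay on both sides of the control, and Hsp90aa1 was higher in CF-KI. Of the 8 genes with at least 20 UMIs, Egr1 and Atf3 were 2-fold or more higher in CF-KI and none was 2-fold lower, where 10.7% of 12016 genes were higher and 1.92% lower. Egr1 gave 26 UMIs in CF-KI, or 6.09 CPM, and 6 in the control, or 1.08 CPM, a log2 ratio of 2.49 (1.18 to 4.06). Atf3 gave 18 and 8 UMIs, or 4.21 and 1.45 CPM, a log2 ratio of 1.54 (0.27 to 2.95). Fos gave 13 and 6 UMIs, and its interval includes 0.

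Egr1 was lower in cardiomyocyte-like nuclei than in any other class of CF-KI, and in the control lower than in all but B cell-like nuclei. In the same nuclei the 8 endothelial markers summed to 662 CPM in CF-KI against 211 CPM in the control, with all 8 detected in each, a log2 ratio of 1.65, and the 8 fibroblast markers to 1033 and 477 CPM, a log2 ratio of 1.11. Their part in the Egr1 and Atf3 values was not tested beyond the subtraction of estimated free RNA. After that subtraction the Egr1 level was above 0 in neither library, so no ratio could be formed, and Atf3 gave 1.78.

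Jun went the other way. It was at 112 CPM (102 to 122) in CF-KI against 149.6 CPM (139.6 to 160.1) in the control, a log2 ratio of -0.42 (-0.58 to -0.25). Jun was also the lower in CF-KI in barcodes of 1 to 5% mitochondrial UMIs, at 117 and 161 CPM, and in those of 5 to 20%, at 107 and 233 CPM. The median log2 ratio of all genes was 0.17 in this class, and scaling by TMM or by the median of ratios shifts every value by -0.18 or -0.22, which takes Jun to -0.60 or -0.64. Junb was at 27.2 and 27.6 CPM. Dusp1 was at 50.6 and 36.3 CPM, a log2 ratio of 0.48 (0.19 to 0.76), which became 0.06 after subtraction of estimated free RNA and -0.14 in barcodes of 5 to 20% mitochondrial UMIs, where the control had 4 Dusp1 UMIs. With median-of-ratios scaling its interval was -0.03 to 0.54. Egr1, Atf3, Dusp1 and Hsp90aa1 had an interval above 0, where 26.8% of all genes did, and Jun an interval below it, where 11.3% did.

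Hsp90aa1, the main contributor to the heat shock sum by UMIs, was at 141 CPM (129.9 to 153) in CF-KI against 90.0 CPM (82.2 to 98.2) in the control in cardiomyocyte-like nuclei, a log2 ratio of 0.65 (0.47 to 0.82). The heat shock sum was 162 and 106 CPM, a log2 ratio of 0.61 (0.45 to 0.77). Dnajb1 was at 15.9 and 12.1 CPM, and Hspa1a and Hspa1b gave 20 and 22 UMIs together. The difference was not the same in all barcodes. Of the CF-KI nuclei 2231 lay in cluster 3 and of the control nuclei 1911 in cluster 4. Within cluster 3 the heat shock sum was 164 CPM in CF-KI against 166 CPM in the 220 control nuclei, and within cluster 4 it was 143 CPM in the 192 CF-KI nuclei and 101 CPM in the control. In barcodes of 1 to 5% mitochondrial UMIs Hsp90aa1 was at 143 and 135 CPM, and the heat shock sum at 162 and 158 CPM. Of the control nuclei 1763 had at most 1% mitochondrial UMIs, with a class median of 0.357% against 3.64% in CF-KI, and at up to 1% the heat shock sum was 122 CPM in CF-KI against 99.3 CPM in the control. The part of mitochondrial share in the difference was not tested beyond these values.

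**Figure D4:**
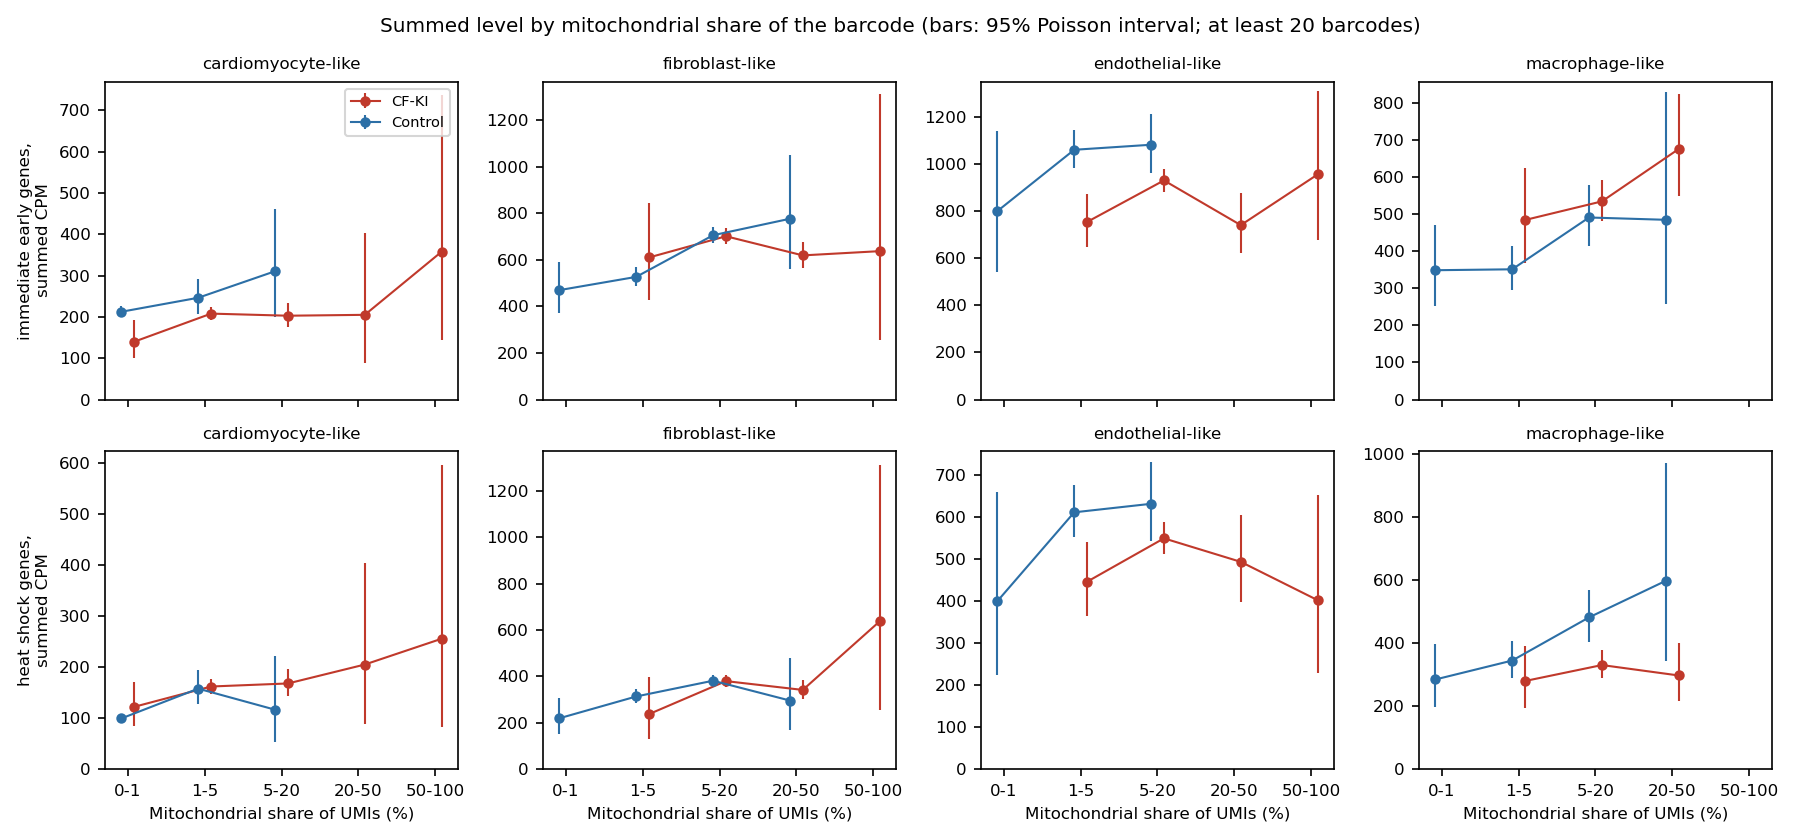
Summed CPM of the 6 immediate early genes (upper row) and the 4 heat shock genes (lower row) in barcodes grouped by the mitochondrial share of their UMIs, for 4 nucleus classes of the CF-KI and control libraries; bars are 95% Poisson intervals and groups under 20 barcodes are left out. Fibroblast-like values of the libraries meet at 5 to 20% (701 and 705 CPM for the immediate early sum), while endothelial-like values of CF-KI stay below the control at 1 to 5% and at 5 to 20%.

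In endothelial-like nuclei both sums were lower in CF-KI, with Egr1, Junb, Jun and Hspa1a below the control. The immediate early sum was 891 CPM (849.6 to 933) in CF-KI against 1059 CPM (995.9 to 1126) in the control, a log2 ratio of -0.25 (-0.36 to -0.14), and the heat shock sum 528 and 612 CPM, a log2 ratio of -0.21 (-0.36 to -0.06). Jun, Junb, Egr1 and Hspa1a, 4 of the 10 genes, had an interval below 0, where 12.7% of 10283 genes did, and 0 of 10 had one above it, where 8.1% did. At 2-fold, Egr1 and Hspa1a were lower and Fos higher, where 3.22% and 3.3% of all genes were.

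Egr1 was at 61.7 CPM (51.3 to 73.7) in endothelial-like nuclei of CF-KI and 141 CPM (119 to 167) in those of the control, a log2 ratio of -1.19 (-1.56 to -0.83). An Egr1 UMI was found in 5.39% of the CF-KI and 11.4% of the control nuclei, and after thinning in 2.72% and 6.51%. The difference was unequal between the 2 endothelial-like clusters. In cluster 6 Egr1 was at 55.8 CPM in CF-KI against 221 CPM in the control, and in cluster 9 at 65.5 and 84.2 CPM. With at least 500 genes per barcode the log2 ratio was -0.74. In barcodes of 5 to 20% mitochondrial UMIs Egr1 was at 67.3 and 114 CPM, and in those of 1 to 5% at 39.0 and 147 CPM.

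Junb was at 71.9 CPM in endothelial-like nuclei of CF-KI and 116 CPM in those of the control, a log2 ratio of -0.69 (-1.05 to -0.32), and Jun at 335 and 407 CPM, a log2 ratio of -0.28 (-0.46 to -0.10). Both AP-1 genes were lower in CF-KI in cluster 6, at 81.8 and 132 CPM for Junb and 310.3 and 399.9 CPM for Jun, and in cluster 9, at 65.5 and 103 CPM for Junb and 350.0 and 412 CPM for Jun. Dusp1 stood apart from them, with 403 and 386 CPM and an interval of the log2 ratio of -0.11 to 0.25. Fos gave 17 UMIs in CF-KI against 3 in the control, with an interval of -0.30 to 3.90, and Atf3 gave 21 and 7, with an interval of -0.72 to 2.05.

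Hspa1a gave 34 UMIs in the endothelial-like nuclei of each library, or 17.2 and 34.8 CPM, a log2 ratio of -1.01 (-1.74 to -0.29). Hspa1b was at 18.2 and 21.5 CPM, Dnajb1 at 34.9 and 44.0 CPM and Hsp90aa1 at 458 and 511 CPM, all with intervals that include 0. Hspa1a and Hspa1b together were at 35.4 and 56.2 CPM, a log2 ratio of -0.67 (-1.20 to -0.13). In these nuclei the 8 endothelial markers summed to 24775 CPM in CF-KI against 27928 CPM in the control, a log2 ratio of -0.17, and the 8 cardiomyocyte markers to 13033 and 7577 CPM. After subtraction of estimated free RNA the Egr1 ratio was -1.24, Junb -0.89, Jun -0.15 and the immediate early sum -0.12.

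In macrophage-like nuclei Dusp1 was higher in CF-KI. It was at 195 CPM (168 to 225) in CF-KI against 77.1 CPM (59.5 to 98.2) in the control, a log2 ratio of 1.34 (0.92 to 1.77). A Dusp1 UMI was found in 23.6% and 6.1% of the nuclei, and after thinning in 11% and 3.99%. Dusp1 was higher in CF-KI at 1 to 5% mitochondrial UMIs, at 214 and 76.7 CPM, and at 5 to 20%, at 190.2 and 83.0 CPM. At 2-fold Dusp1 was the 1 of 10 genes higher and Hspa1b the 1 of 10 lower, where 9.73% of 9872 genes were higher and 6.91% lower. By their interval the same genes lay above and below 0, where 14.6% and 15.8% of all genes did.

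Markers of the class itself were lower in CF-KI. The 8 macrophage markers summed to 3681 CPM in CF-KI against 9234 CPM in the control, a log2 ratio of -1.33, and the 8 endothelial markers, of a class rich in Dusp1, to 3018 and 1199 CPM, a log2 ratio of 1.33. All 8 of both lists were detected in both libraries. Subtraction of estimated free RNA gave a log2 ratio of 2.03 for Dusp1, and the part of endothelial RNA as such in the difference was not tested. The immediate early sum was 551 and 403 CPM, a log2 ratio of 0.45 (0.25 to 0.65), and in barcodes of 5 to 20% mitochondrial UMIs it was 535 and 491 CPM, a log2 ratio of 0.12 (-0.16 to 0.41). Fos was at 35.8 and 22.5 CPM and Egr1 at 29.5 and 17.8 CPM, with intervals that include 0, as for Jun at 189.8 and 181 CPM, Junb at 83.3 and 91.3 CPM and Atf3 on 17 and 11 UMIs.

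The heat shock sum of macrophage-like nuclei was lower in CF-KI, at 319 and 390.0 CPM, a log2 ratio of -0.29 (-0.52 to -0.06). Hspa1b gave 6 and 15 UMIs, a log2 ratio of -1.49 (-3.14 to -0.04), and Hspa1a 19 and 29 UMIs. The Hspa1b ratio was 0.23 after thinning, on 4 and 5 UMIs, and its interval included 0 with doublets kept (-1.96 to 0.58) and with at least 500 genes per barcode (-3.05 to 0.23). Dnajb1 was at 29.5 and 35.6 CPM and Hsp90aa1 at 264 and 302 CPM, with intervals that include 0. The 8 cardiomyocyte markers reached 16195 CPM in macrophage-like nuclei of CF-KI against 5291 CPM in the control, and their part in the heat shock values was not tested. Cardiomyocyte-like nuclei had the lowest heat shock sum of the compared classes. The cluster kept apart for its mitochondrial share, which also carries cardiomyocyte markers, had sums of 399.5 and 336 CPM. In the control 1 nucleus held 10 of the 29 Hspa1a UMIs, and 1 nucleus held 28 of the 255 Hsp90aa1 UMIs. After thinning to 500 UMIs the heat shock sum lay on the other side, at 0.14.

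In 3 further classes Dusp1 or Jun was higher in CF-KI. In mesothelial-like nuclei, the lining of the heart's surface, Dusp1 was at 101 CPM in CF-KI against 25.6 CPM in the control, a log2 ratio of 1.97 (1.21 to 2.81), Jun at 121 and 85.5 CPM, and Hsp90aa1 at 454 and 309 CPM. Fos gave 11 UMIs there in CF-KI against 1 in the control, a log2 ratio of 3.49 (0.71 to 8.92). The immediate early sum was 339 and 192 CPM, a log2 ratio of 0.82 (0.50 to 1.13). Of the 9 genes with at least 20 UMIs, Dusp1 and Egr1 were 2-fold higher, where 6.65% of 8675 genes were, and 0 were 2-fold lower, where 3.2% were. Jun, Dusp1 and Hsp90aa1 had an interval above 0, where 12.2% of genes did, and 0 had one below it, where 7.45% did. Junb was at 58.4 and 41.3 CPM, Egr1 at 21.9 and 9.97 CPM, Atf3 at 20.4 and 28.5 CPM, Hspa1a at 14.6 and 18.5 CPM, Hspa1b at 11.7 and 17.1 CPM and Dnajb1 at 14.6 and 14.2 CPM, all with intervals that include 0. In these nuclei the 8 cardiomyocyte markers summed to 8710 CPM in CF-KI against 3833 CPM in the control and the 8 endothelial markers to 2027 and 1496 CPM, and their part in the differences was not tested.

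In pericyte-like nuclei Dusp1 was at 127 and 55.7 CPM, a log2 ratio of 1.19 (0.38 to 2.03), and it was the 1 of 6 genes 2-fold higher, where 13.1% of all genes were, and 0 were lower, where 4.99% were. Hsp90aa1 was at 422 CPM in CF-KI against 308 CPM in the control, and it and Dusp1 had an interval above 0, where 16.3% of genes did, and 0 had one below it, where 7.17% did. Jun gave 34 and 40 UMIs there, Junb 20 and 13, Egr1 9 and 20, Hspa1a 7 and 6, Hspa1b 11 and 13, Dnajb1 6 and 8, Fos 2 and 5 and Atf3 3 and 1, with intervals that include 0. The endothelial markers summed to 3863 and 1499.7 CPM in pericyte-like nuclei, and their part in the Dusp1 difference was not tested.

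In endocardial-like nuclei Jun was at 327 and 256 CPM, a log2 ratio of 0.35 (0.12 to 0.59), and Hsp90aa1 at 321 and 246 CPM, a log2 ratio of 0.38 (0.15 to 0.62). Hspa1b, with 8 and 17 UMIs, was the 1 of 10 genes there that was 2-fold lower, where 3.11% of all genes were, and 0 were higher, where 6.43% were. Jun and Hsp90aa1 were the 2 of 10 with an interval above 0, where 12.2% of genes had one, and 0 had one below it, where 11.4% did. Fos was at 21.2 and 16.2 CPM, Junb at 102 and 87.0 CPM, Egr1 at 57.3 and 52.6 CPM, Atf3 at 19.4 and 11.5 CPM, Dusp1 at 125 and 97.5 CPM, Hspa1a at 16.6 and 26.8 CPM and Dnajb1 at 20.3 and 23.9 CPM. The 8 cardiomyocyte markers summed to 14446 and 5186 CPM in these nuclei, and their part in both differences was not tested.

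The smaller classes gave few UMIs. Of the 4 genes with at least 20 UMIs in lymphatic endothelial-like nuclei, 0 were 2-fold higher or lower, where 9.44% and 5.47% of genes were, and 0 had an interval above or below 0, where 9% and 6.49% did. Jun gave 63 and 24 UMIs in them, Dusp1 38 and 26, Hsp90aa1 48 and 25 and Junb 20 and 8. Egr1 gave 7 and 1 UMIs, Hspa1a 4 and 2, Dnajb1 4 and 2, Hspa1b 3 and 1 and Fos 2 and 1, and Atf3 was at 0 in both libraries. In adipocyte-like nuclei Jun gave 11 and 6 UMIs, Egr1 8 and 3, and Dusp1 17 and 10, with log2 ratios of 1.62, 2.16 and 1.51. Hsp90aa1 gave 29 and 48 UMIs, Junb 5 and 12 and Dnajb1 2 and 5, and Fos, Atf3, Hspa1a and Hspa1b gave 0 or 1 in each library. Dusp1 was the 1 of 2 genes with at least 20 UMIs there that was 2-fold higher, where 11% of genes were, and had an interval above 0, where 12.4% did. None was 2-fold lower, where 6.6% were, or had an interval below 0, where 8.06% did. The median mitochondrial share of adipocyte-like nuclei was 5.64% in CF-KI against 0.614% in the control, and its part was not tested. In B cell-like nuclei Egr1 gave 6 UMIs in CF-KI against 0 in the control, which is at least 2.63-fold higher when the control is set to 3 UMIs over the class. Of 3 genes with at least 20 UMIs there, 0 were 2-fold higher or lower, where 6.01% and 10.9% of genes were, and 0 had an interval above or below 0, where 7.43% and 11.3% did. Hsp90aa1 gave 64 and 110 UMIs, Jun 12 and 23, Junb 9 and 21, Dusp1 11 and 4 and Dnajb1 7 and 6. Fos gave 1 and 0, Hspa1a 0 and 2 and Hspa1b 0 and 3, and Atf3 was at 0 in both. Hsp90aa1 in atrial cardiomyocyte-like nuclei was at 426 CPM in CF-KI against 134 CPM in the control, a log2 ratio of 1.67 (0.85 to 2.51). It was the 1 of 2 genes with at least 20 UMIs there that was 2-fold higher, where 20.2% of genes were, and had an interval above 0, where 21.5% did. None was 2-fold lower, where 8.88% were, or had an interval below 0, where 6.4% did. Dusp1 gave 9 and 19 UMIs there, Jun 7 and 10, Fos 2 and 4, Junb 1 and 5 and Dnajb1 0 and 3. Egr1 and Atf3 gave 1 in each library, and Hspa1a and Hspa1b were at 0 in both. The median mitochondrial share of those nuclei was 25.3% and 1.54%, and its part in the difference was not tested.

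Dusp1 was the gene whose ratio lay above 0 with its interval in the most classes, namely in B cell-like, fibroblast-like, macrophage-like, adipocyte-like, cardiomyocyte-like, pericyte-like and mesothelial-like nuclei, 7 of the 11. In these classes 7.43% (B cell-like) to 26.8% (cardiomyocyte-like) of all genes had such an interval. The B cell-like value rests on 11 and 4 UMIs, under the 20 UMIs set for those shares. The 8 endothelial markers were also higher in CF-KI in several of these classes, with log2 ratios from 0.44 in mesothelial-like to 1.65 in cardiomyocyte-like nuclei. Their part was not tested beyond the free RNA subtraction, where that was made. The cardiomyocyte-like interval included 0 with median-of-ratios scaling and the ratio there was 0.06 after free RNA subtraction, and the fibroblast-like ratio was 0.04 at 5 to 20% and -0.90 at up to 5% mitochondrial UMIs. Its ratio in endothelial-like nuclei, the class with its highest level, was 0.07.

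Other genes of the same pathways were taken from lists of 10 further AP-1 and ATF genes, 29 further immediate early genes, 8 dual specificity phosphatases, 28 further heat shock and chaperone genes and 10 upstream transcription factors. Medians and 2-fold counts of these lists are over genes with at least 20 UMIs, with 0.5 UMI added to each count. In fibroblast-like nuclei the further immediate early genes had a median log2 ratio of -0.05 over 27 genes, near that of all genes, -0.02, and 0 of 27 were 2-fold higher or lower. Nr4a1, a nuclear receptor of the immediate early class, was at 44.7 and 27.5 CPM, a log2 ratio of 0.70 (0.33 to 1.07), and Egr3, a relative of Egr1, at 9.90 and 18.4 CPM, a log2 ratio of -0.89 (-1.53 to -0.28). Klf10, a TGF-beta inducible repressor, was at 71.1 and 113.9 CPM there, a log2 ratio of -0.68. Mafk and Mcl1 were among the highest, at 0.68 and 0.62, and Per1 among the lowest, at -0.49.

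In cardiomyocyte-like nuclei Klf10 was the lowest of 26 further immediate early, AP-1 and phosphatase genes with at least 50 UMIs, at 9.83 CPM in CF-KI against 54.6 CPM in the control, a log2 ratio of -2.47 (-2.97 to -2.0). Ccn1, a matricellular protein gene, and Atf4, a factor of the integrated stress response, followed at -0.53 and -0.51. Sgk1, a serum- and glucocorticoid-regulated kinase gene, Klf4 and Nfkbia, the inhibitor of NF-kappaB, were the highest, at 1.53, 1.32 and 1.14. Of the 21 further immediate early genes with at least 20 UMIs, 4 were 2-fold higher and 1 was 2-fold lower, where 10.7% and 1.92% of all genes were, and the median was 0.18, as for all genes, 0.17.

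The further heat shock and chaperone genes had a median log2 ratio of 0.59 over 28 genes in cardiomyocyte-like nuclei, against 0.17 for all genes, with 5 genes 2-fold higher and 0 lower, where 10.7% and 1.92% of all genes were. It was 0.28 in fibroblast-like nuclei, with 4 of 28 higher and 0 lower, where 5.56% and 2.71% of all genes were, -0.04 in endothelial-like nuclei and 0.20 in macrophage-like nuclei, and the medians of all genes in these 3 classes were -0.02, -0.07 and -0.03. In the other classes the list's median was 1.09 in atrial cardiomyocyte-like nuclei (18 genes), 0.64 in mesothelial-like (27) and 0.63 in pericyte-like nuclei (25), where the medians of all genes were 0.21, 0.03 and 0.12. It was 0.61 in adipocyte-like (19), 0.34 in endocardial-like (27), 0.04 in lymphatic endothelial-like (18) and -0.18 in B cell-like nuclei (19). The medians of all genes in these were -0.002, -0.05, -0.02 and -0.17. The leading genes in fibroblast-like nuclei were small heat shock protein genes of striated muscle: Cryab at 686 CPM in CF-KI against 165 CPM in the control, a log2 ratio of 2.05, Hspb7 at 121 and 27.3 CPM, and Hspb6 at 51.0 and 14.1 CPM. The 8 cardiomyocyte markers summed to 11207 and 3931 CPM in the same nuclei, all 8 detected in both, a log2 ratio of 1.51. Their part in the small heat shock protein levels was not tested. In cardiomyocyte-like nuclei Cryab was at 541 and 195 CPM, a log2 ratio of 1.47, Cacybp at 1.35 and Hspe1, the mitochondrial co-chaperonin, at 1.24. Bag3, an HSP70 co-chaperone induced by HSF1, was at 62.3 and 69.9 CPM there, and with Dnaja4 (32.5 and 37.6 CPM) and Hspa4l (66.7 and 72.5 CPM) was among the lowest 3, all with intervals that include 0. Serpinh1, the collagen chaperone, was the lowest in fibroblast-like nuclei, at 484 and 650.2 CPM, a log2 ratio of -0.43, followed by the HSP90 co-chaperone genes Stip1 at -0.34 (-0.71 to 0.03) and Ahsa1 at -0.31 (-0.55 to -0.06). The upstream factors had medians of 0.42 over 10 genes in cardiomyocyte-like and 0.17 over 10 in fibroblast-like nuclei.

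**Figure D5:**
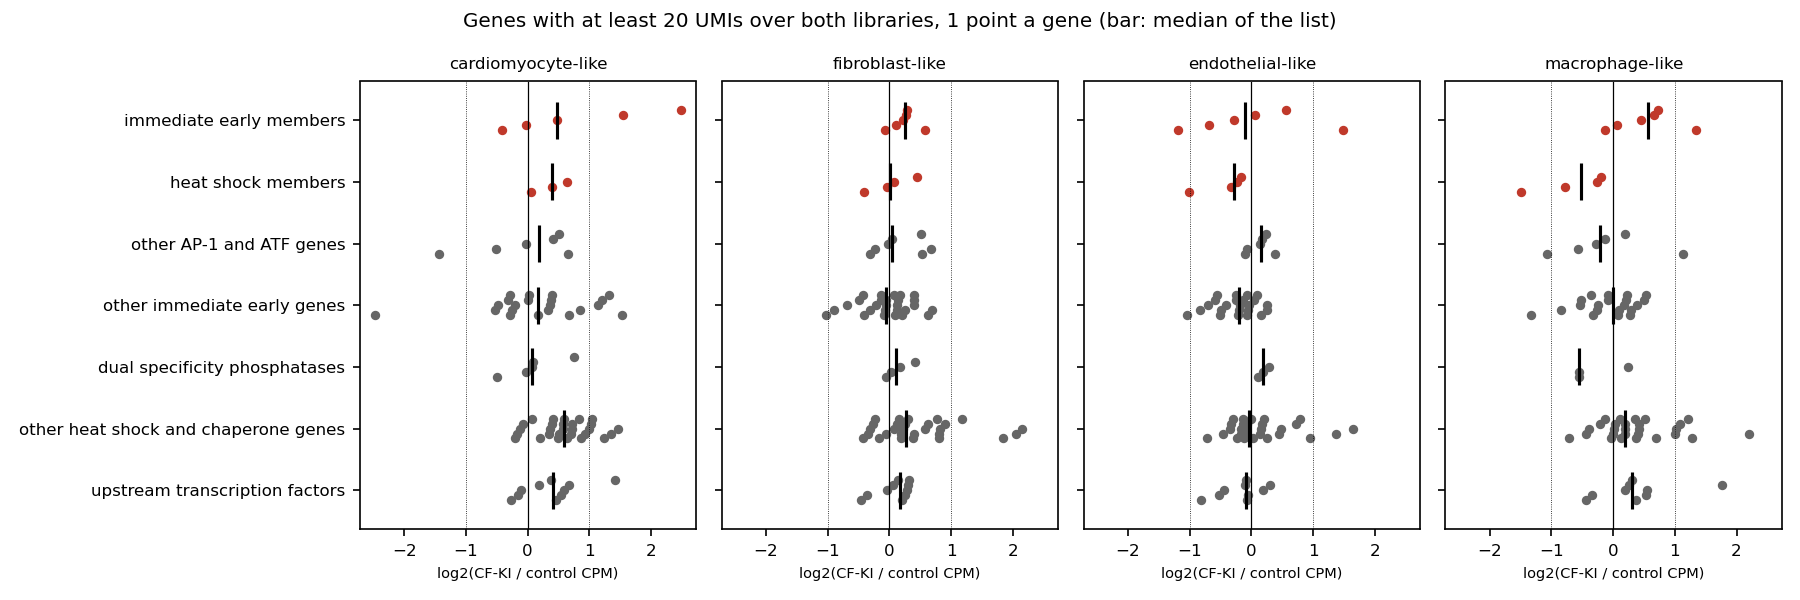
Log2 ratio of CF-KI to control CPM of each gene with at least 20 UMIs in the 2 sets (red) and in 5 related lists (grey), in 4 nucleus classes; each point is 1 gene, plotted without the added 0.5 UMI, bars are medians of the list and dotted lines mark 2-fold. The further heat shock and chaperone genes have a higher median in cardiomyocyte-like nuclei (0.59) than in the other 3 classes drawn, and Klf10 is the leftmost point there (-2.47).

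Over the 22 profiles of 11 classes and 2 libraries, the genes whose pattern was most like Fos were Gpatch4, with a Pearson correlation of 0.81 of log2(CPM + 10), Serpinb8, Mfsd14a, Mgme1 and Psd3, with 0.72 to 0.70, among 10831 genes with at least 200 UMIs. The other members were less like it, from 0.40 for Atf3 to -0.10 for Dnajb1. For Hspa1a the most similar were Coro1c at 0.93, Phf11d, Cdk4, Trim21 and Itm2c, and Hspa1b was at 0.83. The 22 profiles come from 2 libraries, share their free RNA and differ in depth, and these correlations are descriptions only.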

How the data were processed

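Single-nucleus 3′ v3 libraries of heart tissue, 1 per group, were deposited as UMI counts per gene and barcode. The authors made these counts with Cell Ranger 6.1.1 on mm10, per the submitters' processing notes; the cell-calling settings are not given in the sources used here. Barcodes with at least 200 genes were kept, with no mitochondrial limit, since a limit of 5% would leave 16.0% of CF-KI and 61.0% of control barcodes. Scrublet's automatic threshold called 2284 doublets in CF-KI and 0 in the control, so the barcodes with the highest scores were removed at 0.8% per 1000 barcodes (1792 and 1003). Leiden clustering (scanpy 1.11.5, leidenalg 0.10.2, 2000 variable genes without the gene lists, 30 components, resolution 0.8) gave clusters that were named from marker lists when at least 3 markers were raised; names were rebuilt here and may differ from the study's. UMIs were summed per class and library and divided by non-mitochondrial UMIs. Levels have exact Poisson intervals, shares Clopper-Pearson intervals and ratios conditional binomial intervals, all at 95%, for counting error only; a count of 0 was set to 3 UMIs for bounds. The ratio intervals were tested only on simulated Poisson counts. These hold no clumping of UMIs in single nuclei, so that test cannot show how the intervals hold for these data. Free RNA was estimated per class as the median level of a marker set relative to the whole library. The set was the cardiomyocyte list, or the lists of other cell types for cardiomyocyte-like and atrial cardiomyocyte-like nuclei. Classes were compared when each library gave 50 or more nuclei. The text names the 10 members in every compared class, the 3 top and 3 bottom log2 ratios of the other lists in cardiomyocyte-like and fibroblast-like nuclei among genes with 50 or more UMIs, and the 5 most similar patterns. Alternatives were mitochondrial limits, 500 genes, doublets kept, other resolutions, separate clustering, TMM (edgeR 4.0.16) and median-of-ratios (DESeq2 1.42.0) scaling, free RNA subtraction and thinning. Thinning drew 500 non-mitochondrial UMIs per nucleus and left out nuclei with fewer. The members and lists were chosen with earlier results of these data known. GENCODE vM21 matched 99.6% of features.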

Additional observations from a re-analysis of the deposited data

Results flagged for a closer look

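Egr1 lay on opposite sides of 0 in 2 nucleus classes, with a log2 ratio of CF-KI to control of 2.49 in cardiomyocyte-like nuclei and -1.19 in endothelial-like nuclei, and both counting intervals left out 0. The difference between the classes was not tested, since each group was 1 library. The cardiomyocyte-like value rests on 26 and 6 UMIs and the endothelial-like value on 122 and 138. After subtraction of estimated free RNA the cardiomyocyte-like level was above 0 in neither library, so no ratio could be formed there.

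Jun lay at 1.62 in adipocyte-like nuclei, on 11 and 6 UMIs, and at -0.42 in cardiomyocyte-like nuclei, on 478 and 828 UMIs. This difference was not tested either.

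The cluster of high mitochondrial share was outside the comparisons between classes. Its immediate early genes summed to 316 CPM in 1816 CF-KI barcodes against 181 CPM in 235 control barcodes, a log2 ratio of 0.80 (0.36 to 1.27), and its heat shock genes to 399.5 against 336 CPM. The median mitochondrial share of these barcodes was 64.9% and 52.4%.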

How the results depend on the processing

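Of the results, 10 sums and 50 single-gene ratios were recomputed under the alternatives, in 768 combinations, of which 674 stayed inside the interval of the reported value and 80 left it. In the other 14 a ratio whose interval left out 0 changed sign. Ratios whose interval includes 0 could change sign without being among these 14. Limits of 20% mitochondrial UMIs, with 60 results, and both other resolutions and separate clustering, with 48 each, moved 0 of them, and neither did leaving out the barcode with most UMIs in each library, which was added after seeing the data, as was the range of 5 to 20%. The log2 ratio of the immediate early sum of the whole library was 0.21, and -0.43 at up to 5% mitochondrial UMIs, -0.063 at 5 to 20% and 0.26 with TMM. The heat shock sum was 0.19, and -0.24 at up to 5% and -0.094 at 5 to 20%. In cardiomyocyte-like nuclei the immediate early sum of -0.10 became 0.093 on thinning, 0.062 with clusters of high mitochondrial share named by markers, -0.28 with TMM, -0.32 with median-of-ratios, -0.40 with free RNA subtracted and -0.61 at 5 to 20%. The heat shock sum of 0.61 there became 0.29 on thinning, 0.83 with those clusters, 0.43 with TMM and 0.39 with median-of-ratios. In fibroblast-like nuclei the immediate early sum of 0.09 became 0.23 at up to 5%, 0.17 on thinning, 0.24 with free RNA subtracted and -0.0088 at 5 to 20%, and the heat shock sum of 0.07 became -0.35 at up to 5%, on 14 CF-KI UMIs, and 0.19 on thinning. In endothelial-like nuclei the sums of -0.25 and -0.21 became -0.49 and -0.45 at up to 5%, and the first -0.12 with free RNA subtracted. In macrophage-like nuclei the immediate early sum of 0.45 became 0.66 on thinning, 0.80 with free RNA subtracted and 0.12 at 5 to 20%, and the heat shock sum of -0.29 became 0.14 on thinning and -0.54 at 5 to 20%. Single genes among the 14 were, at up to 5% in the whole library, Egr1 at -1.28, Atf3 at -0.14, Dusp1 at -0.12 and Hsp90aa1 at -0.20, and Hsp90aa1 at -0.049 at 5 to 20%. Dusp1 was -0.90 in fibroblast-like nuclei at up to 5% and -0.14 in cardiomyocyte-like nuclei at 5 to 20%, and Hspa1b was 0.23 in macrophage-like nuclei on thinning. The cause was not tested. Free RNA subtraction gave no value where the remaining level was not above 0. No paired analysis was possible because each group has 1 library, so the groups share fewer than 2 replicate numbers.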
